A study of Mus musculus with 3 samples.

Results

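The genes described here are the nucleolar factors that build ribosomes, and the measurement is how much of each factor's messenger RNA came down with ezrin. They were chosen by name, with earlier results of these data known. Of the 63, 49 match the numbered families Nop, Nol, Noc, Utp, Rrp, Gnl and Polr1. The other 14 were listed one by one, from 41743 gene symbols in all. By role, 26 act in assembly of the small (40S) ribosomal subunit, 17 in assembly of the large (60S) subunit, 6 in transcription by RNA polymerase I, 6 in small nucleolar ribonucleoproteins (snoRNPs) and 2, Npm1 and Ncl, in several steps, and 6 were left without such a role. The study recovered RNA by immunoprecipitation (RIP-seq) from K7M2, a mouse osteosarcoma cell line whose own Ezr gene had been knocked out by CRISPR/Cas9 and which then stably carried an ezrin transgene with the T567A change. All 3 libraries share that genotype, and the labels name no treatment: 2 were made with anti-ezrin antibody (ezrin replicates 1 and 2) and 1 with normal mouse IgG, the background. T567A removes the phosphorylation site that opens ezrin, and the series title puts its question as whether the closed form binds RNA. Whether the pull-downs started from different cultures, and how many clones the line represents, is not stated in the labels, so p-values measure only the spread between these libraries, which may be technical.

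Ribosomes are made mostly in the nucleolus. RNA polymerase I transcribes a long precursor of ribosomal RNA, snoRNPs guide chemical changes on it, and the precursor is then cut and folded along separate paths into the 40S and the 60S subunit. The 40S path begins on the small-subunit processome, a particle built around the U3 snoRNA and the UTP proteins, and the 60S path passes through particles that hold the Pes1, Bop1 and Wdr12 complex and a series of GTPases. The factors are made from ordinary mRNAs in the cytoplasm and imported, and growing tumour cells usually hold many of these messages.

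Counts assigned to genes ranged from 10124580 in the IgG library to 19676595 in ezrin replicate 1. Protein-coding genes held 97.5% and 98.1% of counts in ezrin replicates 1 and 2 against 74.6% in IgG. The labelled osteosarcoma identity was only partly visible: 5 of 10 osteoblast markers (Col1a1, Col1a2, Runx2, Spp1 and Sparc) averaged at least 10 CPM (counts per 1e6 counts of the library), whereas Ibsp was at 0 in every library and Sp7 and Bglap had at most 1 count in any. Of 6 macrophage markers, Csf1r alone was abundant and Ptprc and Adgre1 were at 0. The endothelial, epithelial, B cell and erythroid lists, each taken alone, summed to at most 1.98 CPM in any library. No library of input RNA was analysed here, so a higher level in a pull-down and a higher level in the cells cannot be told apart, and in bulk libraries fewer cells holding an RNA and less RNA per cell cannot be told apart either.

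Messages of the nucleolar factors took about the same share of both ezrin libraries and a smaller share of the IgG library. They held 1.02% of counts (95% Clopper-Pearson interval 1.016 to 1.025) in ezrin replicate 1, 1.10% (1.095 to 1.106) in replicate 2 and 0.534% (0.529 to 0.538) in IgG. Set against protein-coding counts alone, the shares were 1.05%, 1.12% and 0.715%, a narrower gap in the same direction. These intervals cover counting error only.

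Gene by gene, most members were more abundant with ezrin than with IgG. With p-values from edgeR (quasi-likelihood F test), adjusted by Benjamini-Hochberg over all 12478 genes tested and called at 0.05, 35 of 62 members were higher, 2 were lower and 25 were not called, where 19.0% of all genes tested were called higher and 17.4% lower. Of the members, 19 were called higher with at least a 2-fold difference, against 9.83% of all genes, and 1 with at least a 4-fold difference, against 0.858%. Both ezrin libraries lay above IgG for 54 members and below it for 5, where 42.6% of all genes had both above and 44.3% both below. The members' median log2 fold was 0.66 and that of all genes tested −0.02. The member left untested, Nol4l, had 6 and 4 counts with ezrin and 4 with IgG.

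**Figure D1:**
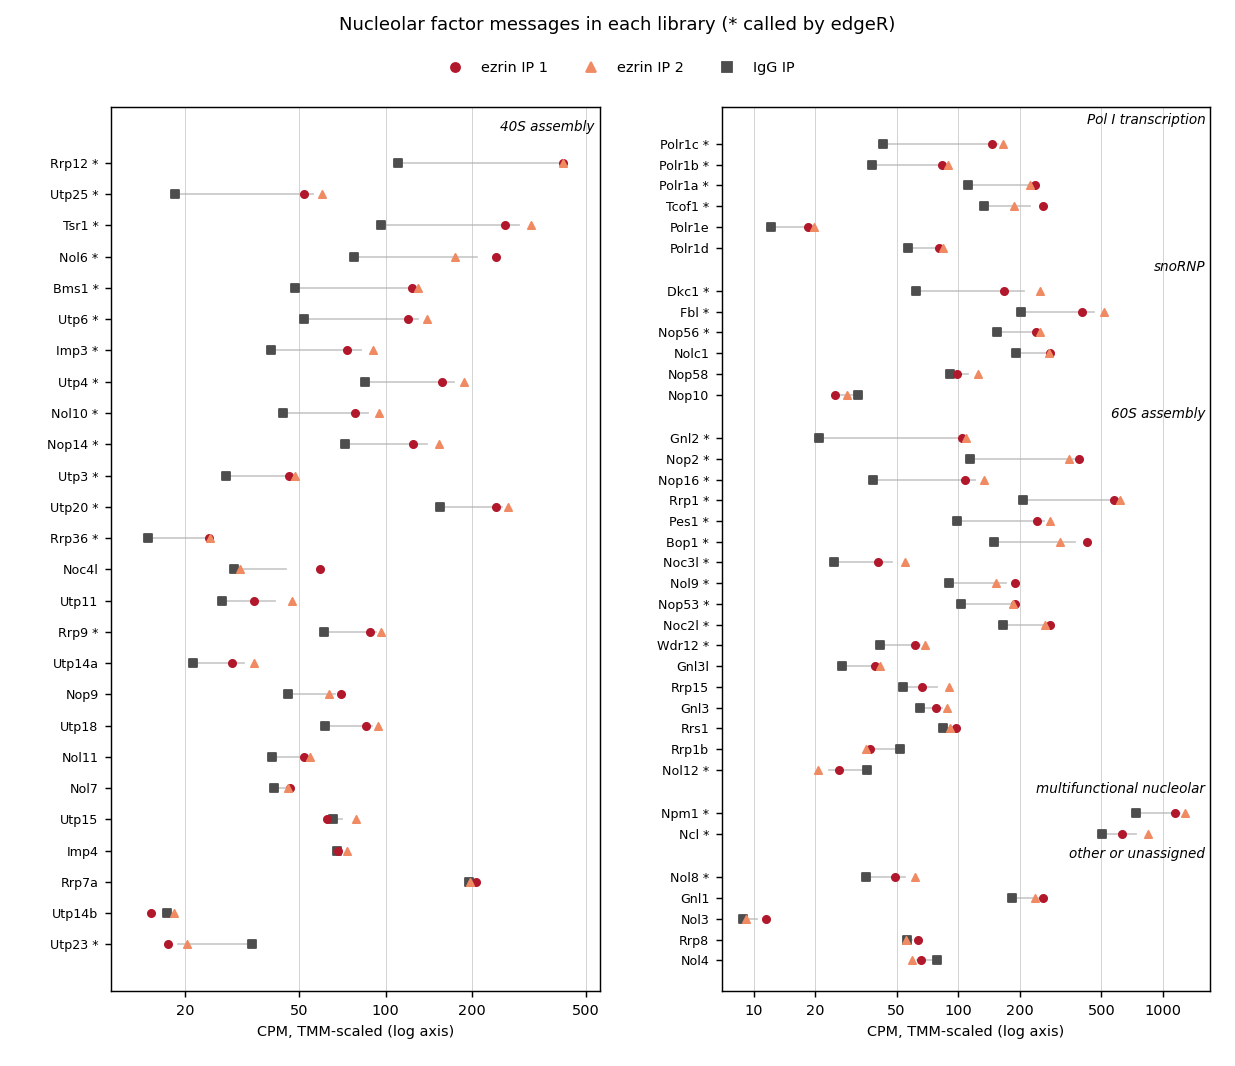
Level of each tested member in each library, in CPM scaled by TMM factors on a log axis, ordered within each role by log2 fold; the circle is ezrin replicate 1, the triangle ezrin replicate 2, the square the single IgG library, the line runs from IgG to the ezrin mean, and a star marks a call by edgeR. Both ezrin points lie to the right of the square for 54 of 62 members, and to its left for Utp23, Rrp1b, Nol12, Nop10 and Nol4.

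The members are also abundant genes, and higher calls were more frequent among abundant genes in these libraries. Their median level over the 3 libraries was 79.3 CPM against 26.0 CPM for all genes tested. Of the 8604 genes that averaged 10 CPM or more, 25.3% were called higher and 16.9% lower, and their median log2 fold was 0.09. Of these genes, 12.2% were called higher with at least a 2-fold difference, and 4220 had both ezrin libraries above IgG. Their median level, 49.5 CPM, was still below that of the members, so this set matches the members' level only in part. After cyclic loess, which removes a trend with level between libraries, 26 members remained called higher and the members' median was 0.55, with all genes at −0.01; 16.9% of genes were then called higher and 17.8% lower. DESeq2 called 30 members higher and did not call Utp23 or Nol12, the members edgeR called lower, where 14.0% of genes were higher and 8.82% lower. With factors set on protein-coding genes only, 34 of the 35 remained called.

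Promoters of the members were searched for CACGTG, the E-box that Myc and related factors can bind, a palindrome and so the same on both strands. RefSeq windows of GRCm38.p6 from 250 bases before to 50 after a start site were matched for 48 of 63 members. The motif lay in 11 of the 48 (22.9%), against 12.01% of 9190 protein-coding genes tested with such a window. Among the 40S factors it was in 9 of 21, and among the 60S factors in 2 of 12. Of members with a window, 6 of 26 called higher, 5 of 20 not called and 0 of 1 called lower held it. To show how it lies beside members that were called and not called, 30 bases around the motif, with the motif in capitals, are given for the 4 members called higher with the highest folds that hold it (Nop2, Utp25, Tsr1 and Pes1) and for the 2 of highest fold among those not called (Utp18 and Nol11).
Nop2: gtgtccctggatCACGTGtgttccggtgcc
Utp25: agccagcgtgccCACGTGcgacagcgacaa
Tsr1: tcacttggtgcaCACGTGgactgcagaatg
Pes1: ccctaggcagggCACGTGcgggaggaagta
Utp18: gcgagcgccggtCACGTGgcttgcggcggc
Nol11: cttgagcgttcgCACGTGgtctagactcca
They lie at chr6:125131811-125131840 on the plus strand (Nop2), chr1:193130211-193130240 on the minus strand (Utp25), chr11:74898092-74898121 on the plus strand (Tsr1), chr11:3963965-3963994 on the plus strand (Pes1), chr11:93885769-93885798 on the minus strand (Utp18) and chr11:107189407-107189436 on the minus strand (Nol11). In Nop2, Utp18 and Nol11 the motif begins 60, 20 and 43 bases before the annotated start, and in Utp25, Tsr1 and Pes1 at bases 24, 25 and 3 of the transcript. A match describes the letters only, and the RIP libraries measure no promoter activity.

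The 5 RNA polymerase I subunits named Polr1 and Tcof1 had both ezrin libraries above IgG, and 4 of these 6 members were called higher, with a median log2 fold of 0.89. Subunits under other symbols fall outside the name rule. Of these, Twistnb was called lower (log2 fold −1.05, edgeR adjusted p = 3.82e-04), and Cd3eap (0.33) and Znrd1 (0.32) were not called. Polr1c, a subunit that RNA polymerases I and III share, stood at 146 and 166 CPM in ezrin replicates 1 and 2 against 43.0 CPM in IgG (gene at chr17:46243920-46248045). Its ezrin values lay close together and far above IgG, and the log2 fold was 1.86 (SE 0.26, edgeR adjusted p = 1.33e-10). The large catalytic subunits were also higher. Polr1b was at 82.8 and 89.1 against 37.7 CPM (log2 fold 1.19, SE 0.26, edgeR adjusted p = 4.98e-05). Polr1a was at 237 and 223 against 111 CPM (log2 fold 1.05, SE 0.25, edgeR adjusted p = 1.73e-04). For both, the gap to IgG was far wider than that between the ezrin libraries.

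Polr1d and Polr1e gave smaller differences that did not pass. Polr1d, the further subunit shared with RNA polymerase III, was at 80.9 and 84.6 against 56.6 CPM (log2 fold 0.55, edgeR adjusted p = 0.0708). Polr1e, which works in initiation, was at 18.5 and 19.7 against 12.2 CPM (log2 fold 0.64, edgeR adjusted p = 0.0602). Both passed in 4 of the 9 alternatives with a test, among them scaling by library size only, which also moved the median of all genes up to 0.10. Tcof1, which encodes treacle, a nucleolar scaffold for ribosomal RNA transcription, was at 260 and 188 against 134 CPM (log2 fold 0.74, SE 0.24, edgeR adjusted p = 0.00881), and after cyclic loess it no longer passed (adjusted p = 0.125). Its ezrin libraries differed 1.38-fold, more than those of any polymerase subunit.

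Among snoRNP messages the catalytic subunits of both classes were higher, while several of their partners were not called. Dkc1, dyskerin, converts uridine to pseudouridine in H/ACA snoRNPs and was at 168 and 251 against 62.0 CPM (chrX:75095854-75109776). Its ezrin libraries differed 1.49-fold, yet the lower one was still far above IgG (log2 fold 1.76, SE 0.26, edgeR adjusted p = 5.79e-10). Fbl, fibrillarin, methylates ribosomal RNA in box C/D snoRNPs and was at 403 and 514 against 202 CPM (log2 fold 1.18, SE 0.24, edgeR adjusted p = 8.43e-06). Nop56, a scaffold of the same particle, was at 238 and 250.2 against 155 CPM (log2 fold 0.66, edgeR adjusted p = 0.0202) and no longer passed after cyclic loess (adjusted p = 0.244).

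Its partner Nop58 was at 98.5 and 125 against 91.1 CPM and did not pass (log2 fold 0.29, edgeR adjusted p = 0.354). Nolc1, a chaperone of snoRNPs, was at 279 and 276 against 190.4 CPM (log2 fold 0.54, edgeR adjusted p = 0.0557). Nop10, a short H/ACA protein, was at 24.97 and 28.6 against 32.3 CPM (log2 fold −0.27, edgeR adjusted p = 0.422), with both ezrin libraries just below IgG, although its sign turned on log2(RPKM + 1), at 0.11. So 3 of the 6 snoRNP members were called higher and none lower, where 19.0% of all genes tested were higher and 17.4% lower. Snu13, a box C/D core protein outside the name rule, was called lower by edgeR (log2 fold −1.05). The members' median log2 fold was 0.60, and 0.28 after cyclic loess. That was the greatest loss of median under that setting among the 4 roles with at least 6 tested members.

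The 40S factors ranged from a log2 fold of 1.92 to −0.86, with 14 of 26 called higher, 1 lower and 11 not called. The highest was Rrp12, a HEAT-repeat protein needed for pre-ribosome maturation and export, at 417 and 418 against 110.5 CPM (chr19:41859483-41896153). The ezrin libraries were nearly equal and both far above IgG (log2 fold 1.92, SE 0.25, edgeR adjusted p = 1.44e-12). Utp25, a component of the small-subunit processome, was at 51.8 and 59.8 against 18.4 CPM (log2 fold 1.60, SE 0.28, edgeR adjusted p = 2.03e-07). Tsr1, which joins the pre-40S particle late in assembly and whose gene overlaps Srr, was at 261 and 322 against 96.4 CPM (log2 fold 1.60, SE 0.25, edgeR adjusted p = 7.06e-09). In each of these the ezrin libraries lay closer to each other than to IgG. Of the 40S factors called higher, Utp25, Tsr1, Utp4 and Utp20 held the E-box searched for above. So did Utp18, Nol11, Imp4, Rrp7a and Utp14b, which were not called. Whether the motif goes with the fold was not tested.

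Further processome members called higher included the scaffold protein Nol6 (log2 fold 1.43), the GTPase Bms1 (1.39), the UTP-B protein Utp6 (1.32), the U3-binding protein Imp3 (1.05), the UTP-A protein Utp4 (1.02), Nol10 (0.98) and Nop14 (0.95). Utp3, Utp20, Rrp36 and Rrp9 were called with log2 folds between 0.59 and 0.76. Of these 4, Utp20 was lost after cyclic loess, Rrp36 with DESeq2 (adjusted p = 0.153) and Rrp9, a U3 snoRNP protein, under both (adjusted p = 0.146 and 0.0760). Imp3 also had a high level per length, at 66.7 and 84.4 RPKM (counts per kilobase of gene and per 1e6 reads, as deposited) against 27.9 RPKM in IgG. Rrp12 was alone above it among 40S factors by mean RPKM, at 80.6 and 82.9 against 16.5. Gaps to IgG run wider in RPKM than in TMM-scaled CPM. The median log2 fold of all genes was 0.22 on log2(RPKM + 1), against −0.02 in the main setting.

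Of the 11 40S factors not called, Rrp7a, Imp4 and Utp14b lay close to IgG, and the sign of their folds depended on the scaling. Rrp7a, a UTP-C protein, was at 206 and 198 against 195 CPM (log2 fold 0.05, edgeR adjusted p = 0.889; −0.24 after cyclic loess). Imp4, which works beside Imp3 on the U3 snoRNA, was at 68.1 and 73.3 against 67.8 CPM (log2 fold 0.06, edgeR adjusted p = 0.872; −0.06 after cyclic loess). Utp14b, a copy of Utp14a needed in male germ cells, was at 15.1 and 18.3 against 17.2 CPM, with IgG between the ezrin libraries. Its log2 fold was −0.05 (edgeR adjusted p = 0.909), and 0.07 with library size only. The gene lies within Acsl3 on the same strand, so its counts may hold reads of Acsl3. Noc4l, the partner of Nop14, was at 58.9 CPM in ezrin replicate 1 but at 31.1 in replicate 2, against 29.5 in IgG, so its difference (log2 fold 0.61, edgeR adjusted p = 0.0508) came from replicate 1: without that library the log2 fold was 0.11.

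Utp23, a processome protein, was the 40S factor called lower. It stood at 17.3 and 20.3 CPM against 34.2 CPM in IgG, from 348, 341 and 327 counts. Both ezrin libraries lay below IgG (log2 fold −0.86, SE 0.25, edgeR adjusted p = 0.00321), but it did not pass with DESeq2 (adjusted p = 0.0624) or with limma on log2(RPKM + 1) (adjusted p = 0.178).

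The 60S factors spanned a wider range, from 2.36 to −0.60, with 11 of 17 called higher, 1 lower and 5 not called. Gnl2, a nucleolar GTPase that acts before pre-60S particles leave the nucleus, had the highest fold of all members. It was at 104 and 109 against 20.8 CPM (chr4:125029989-125055382; log2 fold 2.36, SE 0.28, edgeR adjusted p = 5.24e-15), a 5.14-fold difference that lay at percentile 99.1 of all genes tested. The GTPases related to it differed less. Gnl3, nucleostemin, was at 78.2 and 88.4 against 64.9 CPM (log2 fold 0.36, edgeR adjusted p = 0.252), and Gnl3l was at 39.2 and 41.3 against 27.2 CPM (log2 fold 0.57, edgeR adjusted p = 0.0740). Gnl1, of less settled function, was at 259 and 238 against 182 CPM (log2 fold 0.45, edgeR adjusted p = 0.123). All 4 Gnl messages had both ezrin libraries above IgG, as had 42.6% of all genes tested. Gnl2 alone was called, though whether its fold differs from those of its relatives was not tested.

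Nop2, Nop16 and Rrp1, which act early on the 60S path, were also called higher. Nop2, which methylates a cytosine of 28S ribosomal RNA, was at 387 and 349 against 114 CPM (log2 fold 1.69, SE 0.25, edgeR adjusted p = 4.63e-10). Nop16 was at 108 and 134 against 38.4 CPM (log2 fold 1.66, SE 0.26, edgeR adjusted p = 1.2e-08). Rrp1 was at 578 and 615 against 206 CPM (log2 fold 1.53, SE 0.24, edgeR adjusted p = 4.31e-09). Per length, Rrp1 and Nop2 led the 60S factors. Rrp1 was at 145 and 159 RPKM against 40.1 in IgG and Nop2 at 117 and 108 against 26.6, again with wider gaps than in CPM. In all 3 the ezrin libraries lay far above IgG and close to each other.

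The 3 members of the PeBoW complex, which is needed to process the internal spacer before 28S ribosomal RNA, were all called higher. Pes1 was at 242 and 281 against 98.1 CPM (log2 fold 1.41, SE 0.25, edgeR adjusted p = 3.49e-07). Bop1 was at 427 and 315 against 149.9 CPM (log2 fold 1.31, SE 0.24, edgeR adjusted p = 1.22e-06), and its ezrin libraries differed 1.35-fold. Wdr12 was at 61.5 and 69.0 against 41.4 CPM, a smaller gap (log2 fold 0.66, SE 0.26, edgeR adjusted p = 0.0318) that was no longer called with DESeq2 (adjusted p = 0.0686), after cyclic loess or among genes averaging at least 10 CPM. Noc3l (0.94), the RNA kinase Nol9 (0.93), Nop53 (0.86), which brings the exosome to pre-60S particles, and Noc2l (0.72) were called higher as well, Noc2l not after cyclic loess.

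At the other end, Nol12, which works in processing of the precursor RNA, was at 26.3 and 20.6 against 35.6 CPM and was called lower by edgeR close to the threshold (log2 fold −0.60, SE 0.25, adjusted p = 0.0455). DESeq2 did not call it (adjusted p = 0.218), nor did limma on RPKM (adjusted p = 0.549). Rrp1b, the paralogue of Rrp1, was at 37.0 and 35.3 against 51.7 CPM (log2 fold −0.52, edgeR adjusted p = 0.0855), with both ezrin libraries below IgG, and it passed, among the alternatives, only when genes under a mean of 10 CPM were left out (adjusted p = 0.0328). Rrp1 and Rrp1b thus lay on opposite sides of IgG. Rrs1, which helps bring the 5S particle into the large subunit, was at 96.9 and 91.2 against 84.5 CPM (log2 fold 0.15, edgeR adjusted p = 0.652).

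Npm1 and Ncl, the abundant nucleolar proteins nucleophosmin and nucleolin, carried the largest counts of the group. Npm1 was at 1142 and 1274 against 738 CPM (log2 fold 0.71, SE 0.22, edgeR adjusted p = 0.00532). Ncl was at 633 and 848 against 503 CPM (log2 fold 0.56, SE 0.22, edgeR adjusted p = 0.0339). Both calls were lost after cyclic loess, which brought the log2 folds to 0.07 and 0.02 (adjusted p = 0.834 and 0.955), and that of Ncl also with DESeq2 and among genes averaging at least 10 CPM. Npm1 has processed copies in the genome, and no source used here tells how reads shared with such copies were handled, so its value is uncertain.

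Of the 5 tested members without one of these roles, 1 was called, and the median log2 fold was 0.23. Nol8 was at 48.8 and 61.6 against 35.3 CPM (log2 fold 0.64, edgeR adjusted p = 0.0383; adjusted p = 0.107 with DESeq2). Nol3, an inhibitor of cell death that shares only its name with the family, was at 11.6 and 9.24 against 8.88 CPM (log2 fold 0.23, edgeR adjusted p = 0.603). Nol4 was at 65.8 and 59.7 against 78.9 CPM (log2 fold −0.33, edgeR adjusted p = 0.286, and 0.05 on log2(RPKM + 1)). Rrp8 was at 63.7 and 55.7 against 56.1 CPM (log2 fold 0.09, edgeR adjusted p = 0.807). Rrp8 is a methyltransferase of 28S ribosomal RNA, as Nop2 is, but was not counted with the 60S factors, so their counts and medians leave it out. Without Nol3, Nol4, Nol4l and Gnl1, 35 of 59 members were called higher.

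**Figure D2:**
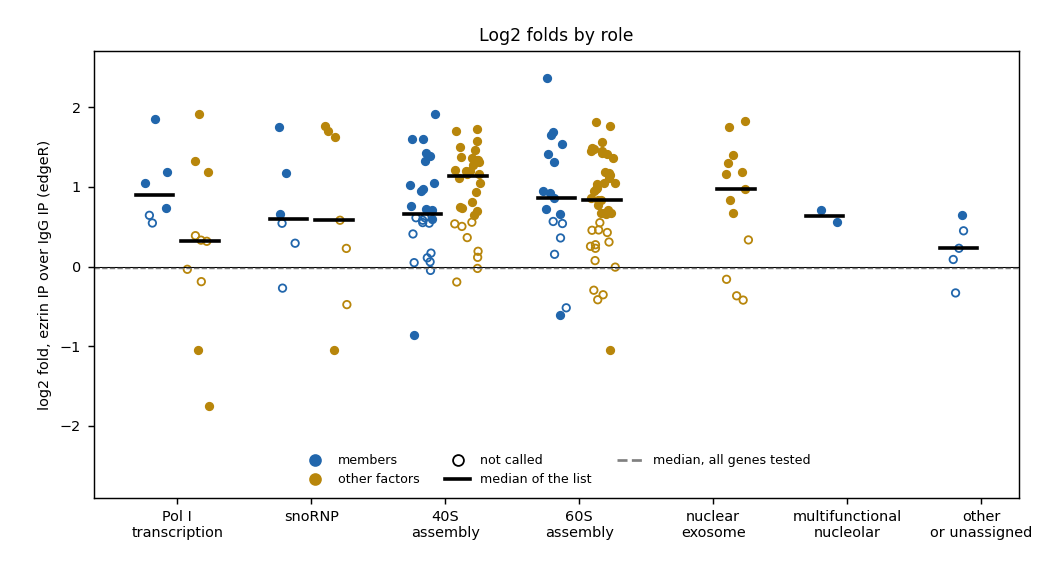
Log2 fold of ezrin over IgG from edgeR, by role, for members (blue) and for other ribosome biogenesis factors outside the name rule (gold); filled points were called, open points were not, bars are list medians and the dashed line is the median of all genes tested (−0.02). Medians of 40S and 60S members are 0.66 and 0.86, and those of the other 40S and 60S factors 1.14 and 0.84, so the order of the assembly paths turns between the lists.

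Factors of 40S and 60S assembly were set side by side by counts and medians, since genes are not replicates. The members were also chosen by name with earlier results of these data known. Among members, 53.8% of 40S and 64.7% of 60S factors were called higher, and the median log2 folds were 0.66 and 0.86. The gap was smaller in the single ezrin libraries, with plain ratios to IgG (1 CPM added to both sides) of 0.66 and 0.76 in replicate 1 and 0.73 and 0.77 in replicate 2. After cyclic loess the medians were 0.56 and 0.62. In summed level, 40S factors reached 2799 and 2967 CPM against 1547 CPM in IgG, and 60S factors 2950.5 and 2897 against 1370 CPM.

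With the listed factors of both paths that the name rule leaves out added, 38 of 58 40S factors and 40 of 60 60S factors were called higher, 65.5% and 66.7%, and 1 and 2 were called lower. The medians became 0.88 and 0.85. The order of the paths therefore turned with the choice of list, and the difference between them was not tested.

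**Figure D3:**
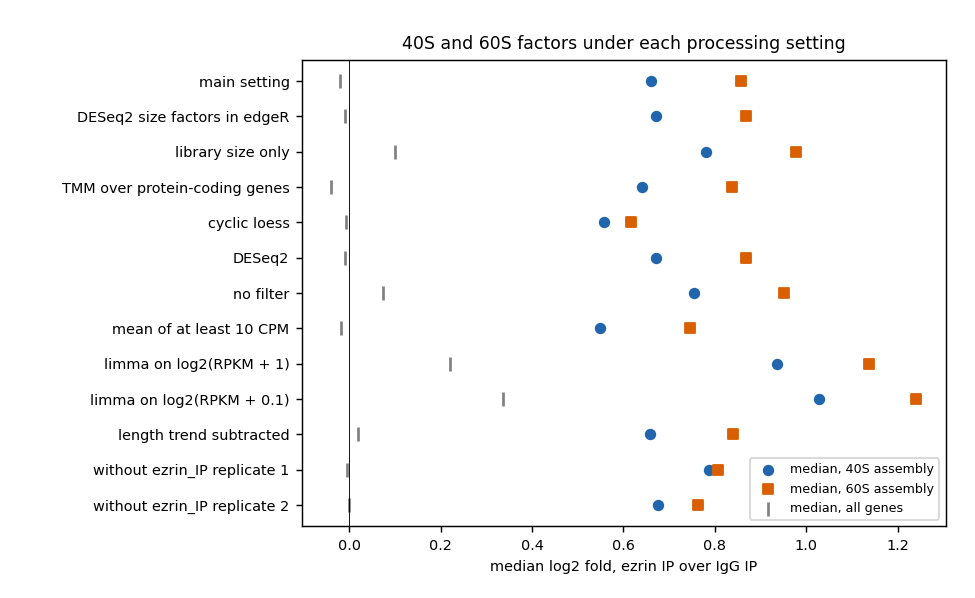
Median log2 fold of the 26 40S members (circles) and the 17 60S members (squares) and of all genes (grey ticks) under the main setting and each processing alternative. The 60S median lies to the right of the 40S median in every setting drawn, by the least without ezrin replicate 1 (0.79 and 0.81), and both lie above the median of all genes throughout.

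The ezrin libraries differed in how high they stood for the members. Ezrin replicate 2 gave the higher CPM for 42 of 62 members and replicate 1 for 20, whereas over all genes replicate 1 was higher for 6217 of 12478. Of the 40S factors 5 of 26 were higher in replicate 1, and of the 60S factors 8 of 17. Single members went the other way: Noc4l was 1.86-fold, Nol6 1.39-fold and Bop1 1.35-fold higher in replicate 1. The fit pooled the spread over genes, along a trend with level, so such members have no larger SE than others of similar level.

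**Figure D4:**
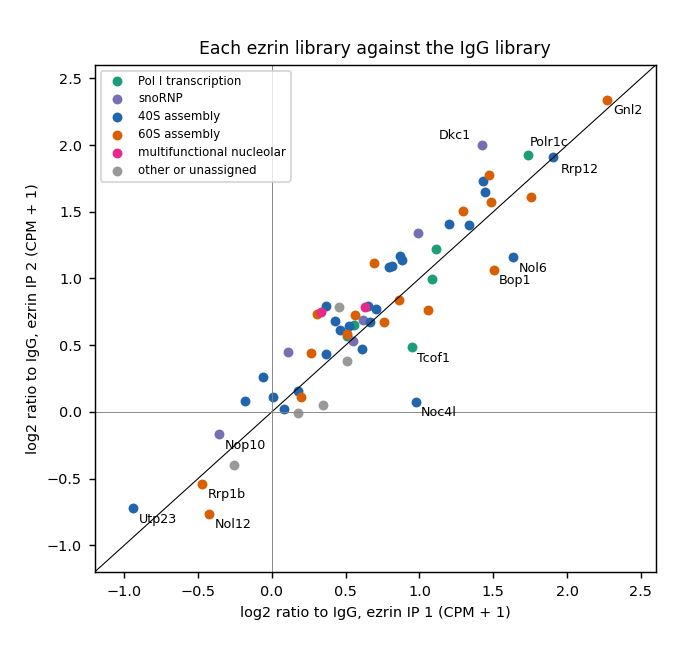
Log2 ratio of each ezrin library to the IgG library, with 1 CPM added to both sides, for the 62 tested members coloured by role; the diagonal marks equal ratios. Gnl2 and Rrp12 lie at the upper right near the diagonal, Utp23, Rrp1b and Nol12 at the lower left, and Noc4l, at 0.98 and 0.08, is far below it. Both axes share the IgG library, which by itself makes the ratios move together.

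A further 105 ribosome assembly factors outside the name rule were listed by function, not as a full account of the pathway. Of these, 68 were called higher, 4 lower and 33 not called, where 19.0% of all genes tested were higher and 17.4% lower. Among genes averaging at least 10 CPM the shares were 25.3% and 16.9%. The median log2 fold of the list was 0.86. Among the 40S factors of that list, 24 of 32 were higher and none lower, led by the UTP-B protein Tbl3 (1.73), Dcaf13 (1.70) and Wdr46 (1.58). Among its 60S factors, 29 of 43 were higher, led by Rpf1 (1.81) and the methyltransferase Ftsj3 (1.77), and Rsl24d1 was lower (−1.04). The nuclear exosome, which trims precursor ends, had 9 of 13 higher, with its helicase Mtrex at 1.83. Of the 7 listed snoRNP factors, 3 were higher and 1, Snu13, was lower, with a median log2 fold of 0.58. The 10 listed factors of RNA polymerase I transcription were split, with 3 higher, 2 lower and a median log2 fold of 0.32. Taf1a (1.92), Taf1c (1.32) and Taf1b (1.18) were higher, and Taf1d (−1.75) and Twistnb (−1.05), a polymerase subunit, were lower. Ubtf (−0.19, edgeR adjusted p = 0.53) and Rrn3 (−0.03, edgeR adjusted p = 0.93) were not called, nor were Cd3eap (0.33), Znrd1 (0.32) and Ttf1 (0.39).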

How the data were processed

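The authors deposited a table of raw counts by gene symbol and a table of RPKM for each of the 3 libraries. The build was GRCm38, per the submitters' processing notes, while no source used here names the aligner, the counter, the annotation or whether strand was used. Counts were tested with edgeR 4.0.16 (R 4.3.3): TMM scaling, default filterByExpr by group, quasi-likelihood F test, Benjamini-Hochberg adjustment over 12478 genes at 0.05. The fit has 1 residual degree of freedom, and its prior degrees of freedom were infinite throughout. No gene therefore has a spread of its own: the spread is pooled over genes, along a trend with level. IgG, with 1 library, is taken to vary as ezrin does. With 3 libraries an exact permutation test cannot go below p = 0.333. Standard errors are the log2 fold over the square root of F and are approximate. CPM are scaled by TMM factors. Library totals, 10124580 to 19676595 counts, set the precision. The test was also run on simulated counts that gave all 3 libraries, IgG included, the spread of this same fit. Such a run cannot check how far IgG libraries differ or whether the ezrin replicates are technical. Gene lengths were taken as count over RPKM, scaled on small RNA genes.

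Alternatives were other scalings, filters, DESeq2 1.42.0, limma 3.58.1 on log2 of RPKM plus 1 or 0.1, and leaving out each ezrin library. The members and lists were chosen with earlier results of these data known. Named genes were, per role, the 3 highest and 3 lowest folds, the 2 most abundant per length, and the PeBoW, snoRNP, RNA polymerase I and Gnl members. Noc4l, Imp4 and the others named beside them were chosen after their values were seen. Coordinates and promoter sequences are RefSeq's for GRCm38.p6.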

Additional observations from a re-analysis of the deposited data

How the results depend on the processing

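Members called higher numbered 26 to 47 over the 9 alternatives with a test, against 35, and no member changed sign with a call. Of all genes, 19.0% were called higher in the main setting, 14.0% with DESeq2 and 16.9% after cyclic loess. For the other alternatives that share was not counted. The largest counts were 47 with limma, 46 with library size only and 43 without a filter. In these settings the median of all genes also moved up, to 0.07 without a filter and as given below for the others. Members called lower numbered 2, and 1 with DESeq2 size factors in edgeR, library size only or no filter, 0 with DESeq2 and with limma on RPKM at either pseudocount, and 3, with Rrp1b added, at a minimum mean of 10 CPM. Library size only gave median log2 folds of 0.78 (all members), 0.78 (40S), 0.98 (60S), 0.72 (snoRNP) and 1.01 (RNA polymerase I), and moved the median of all genes to 0.10. Cyclic loess gave 0.55, 0.56, 0.62, 0.28 and 0.72 in the same order, and a minimum mean of 10 CPM 0.55, 0.55, 0.75, 0.49 and 0.78. With limma they were 0.94, 0.94, 1.14, 0.96 and 1.18 on log2(RPKM + 1), and 1.03, 1.03, 1.24, 0.99 and 1.26 on log2(RPKM + 0.1), where all genes moved to 0.22 and 0.34. Without a filter the 40S, 60S and snoRNP medians were 0.75, 0.95 and 0.69. With 1 ezrin library left out, and no test, medians ranged from 0.63 to 0.77 (all members), 0.68 to 0.79 (40S), 0.76 to 0.81 (60S), 0.59 to 0.65 (snoRNP) and 0.88 to 1.02 (RNA polymerase I). Subtracting a trend on gene length left the medians within the spread of the ezrin libraries. The other factors called, higher or lower, numbered 65 to 78, against 72, over the alternatives with a test except limma, for which they were not counted. Apart from the scalings, whose shift of all genes is given, the cause of these moves was not tested. No paired analysis was possible because the ezrin and IgG groups share 1 replicate number only. Leaving out the single IgG library leaves no comparison. With 1 IgG library, its own spread is unknown.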

Other observations

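Among complexes put together by function after the values were seen, some had all listed members called higher by edgeR and others did not. Besides the PeBoW complex, Noc2l, Noc3l and Cebpz (1.41) were all higher, and of the Pelp1 group, Pelp1 (1.03), Tex10 (0.67), Wdr18 (1.12), Las1l (1.05) and Nol9 were higher and Senp3 (−0.42, adjusted p = 0.155) was not called. In the H/ACA core Dkc1 (log2 fold 1.76) and Gar1 (1.70) were called higher by edgeR, while Nhp2 (−0.48, adjusted p = 0.1) and Nop10 were not called. In the box C/D core Fbl was higher and Snu13 lower (−1.05), at 144 and 159 CPM in ezrin replicates 1 and 2 against 313 CPM in IgG. Snu13 also serves the spliceosome. Of the UTP-B proteins, Utp6, Wdr3 (1.37), Wdr36 (1.37), Tbl3 (1.73) and Pwp2 (1.73) were higher and Utp18 was not called, while in UTP-A, Utp4, Heatr1 (1.05) and Wdr75 (1.34) were higher and Utp15, Nol11 and Wdr43 were not called. Bms1 was higher and its partner Rcl1 stood at −0.02, and Imp3 and Mphosph10 (0.73) were higher beside Imp4 at 0.06. Differences between partners were not tested.

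By RefSeq coordinates, 7 members (Tsr1, Nop53, Gnl3, Ncl, Dkc1, Nop56 and Nop58) hold 17 snoRNA genes within their span, of which the tables list 12. All 12 had 0 counts in all 3 libraries, as did nearly all snoRNAs: 29 of 1032 snoRNA genes in the tables had a count in any library. Whether the RNA was selected by polyA or by depletion of ribosomal RNA is not settled by the labels, and what the zeros say of these snoRNAs was not tested. Of 63 members, 16 overlap another protein-coding gene, among them Tsr1 with Srr and Utp14b, which lies within Acsl3 on the same strand, and without a stated use of strand their counts may hold reads of the neighbour. Across the 62 tested members, Spearman's rho of log2 fold with level (log2 of mean CPM plus 1) was 0.48, against 0.26 across all genes tested, and with gene length −0.16, against −0.05. These are descriptions across genes of the same 3 libraries.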
